A study of Mus musculus with 2 samples.

Results

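The genes described here encode 7 membrane carriers for bile acids, organic anions and organic cations. They were taken by symbol from the deposited gene table, in which each matched 1 of 36808 rows. The members are Slc10a1, Slco1a1, Slco1a4, Slco1b2, Slco2b1, Slc22a7 and Slc47a1. RNA was sequenced from hepatocytes isolated from C57Bl6 mice and kept in William E medium with serum, insulin and dexamethasone, which both groups received. The cells of one library had been given the solvent DMSO, and those of the other GW3965 at 1 µM, a compound that activates the nuclear receptors LXRα and LXRβ (LXR). Each group had 1 library, so no difference below has a replicate check. The sources used here do not give the age and sex of the mice, the hours of treatment or whether cells of several animals were pooled. The table names its second library GL, and it was read as GW3965, the only other sample in the labels. That reading is not certain, because the letters could stand for GW3965 with a further ligand, which the LXR targets given at the end would not tell apart from GW3965 alone.

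Hepatocytes take up bile acids, bilirubin, hormones and many drugs from the blood across their sinusoidal membrane, convert or conjugate them, and pass them on into bile. Slc10a1 (NTCP) brings in conjugated bile acids together with sodium, the Slco carriers (OATPs) bring in bulky organic anions without sodium, and Slc22a7 (OAT2) carries smaller organic anions. Slc47a1 (MATE1) is the exception among the 7, because it exchanges organic cations for protons and works mainly as an exporter on the canalicular side. In adult liver the uptake carriers are regarded as markers of the differentiated hepatocyte, and their transcripts are known to decline when hepatocytes are plated. No fresh liver was measured here.

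Of the members, 3 lie in the Slco1 cluster. Their promoters are shown because the ratio of GW3965 to DMSO differed between Slco1b2 (0.248) and Slco1a1 (1.38). The ratio of Slco1a4 (0.258) was close to that of Slco1b2 and rested on about 10 and 3 fragments. Whether the promoter letters bear on these ratios was not tested. The cluster holds 6 genes over 799 kb of chromosome 6 in the table, in the order Slco1c1, Slco1b2, Slco1a4, Slco1a1, Slco1a6 and Slco1a5. Each window below runs from 250 bases before to 50 bases after the RefSeq start site in GRCm38.p6, read 5′ to 3′ on the strand of the gene. Capitals mark AGGTCA, the hexamer bound by many nuclear receptors, on either strand (TGACCT is AGGTCA read from the other strand). The windows are chr6:141629268-141629567 (plus strand) for Slco1b2, chr6:141856171-141856470 (minus strand) for Slco1a4 and chr6:141946913-141947212 (minus strand) for Slco1a1.
Slco1b2: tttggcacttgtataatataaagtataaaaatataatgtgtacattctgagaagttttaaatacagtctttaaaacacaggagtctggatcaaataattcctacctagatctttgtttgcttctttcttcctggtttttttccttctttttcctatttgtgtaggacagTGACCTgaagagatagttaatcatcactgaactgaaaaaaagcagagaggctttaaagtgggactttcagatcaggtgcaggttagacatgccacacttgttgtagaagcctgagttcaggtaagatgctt
Slco1a4: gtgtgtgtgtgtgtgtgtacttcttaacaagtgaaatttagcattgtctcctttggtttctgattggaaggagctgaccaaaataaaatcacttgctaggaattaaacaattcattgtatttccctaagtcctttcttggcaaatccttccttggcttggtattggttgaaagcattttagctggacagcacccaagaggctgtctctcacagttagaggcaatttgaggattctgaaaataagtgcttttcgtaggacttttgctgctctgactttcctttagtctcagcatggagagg
Slco1a1: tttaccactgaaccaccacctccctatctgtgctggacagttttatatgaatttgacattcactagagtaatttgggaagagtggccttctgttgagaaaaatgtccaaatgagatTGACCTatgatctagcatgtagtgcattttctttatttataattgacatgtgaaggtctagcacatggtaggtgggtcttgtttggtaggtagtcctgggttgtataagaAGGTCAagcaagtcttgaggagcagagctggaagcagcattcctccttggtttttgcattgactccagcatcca
The Slco1b2 window held 1 such hexamer, at -81 relative to the start site, the Slco1a1 window held 2, at -134 and -24, and the Slco1a4 window held 0. Of 32851 RefSeq promoter windows of the same length, 16.3% held AGGTCA. The exact repeat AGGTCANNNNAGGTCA, the textbook site of LXR with its partner RXR, was in 0.0152% of all windows and in 0 of the 8 windows listed for 5 of the 7 members. Such matches describe letters in these windows and not bound sites.

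The carriers were expressed at very low levels in both cultures. FPKM, the unit of the table, is the number of sequenced fragments relative to transcript length and library size, so levels can be compared between genes. Slc47a1 was the only one of the 7 that reached an FPKM of 1 in either library, and the other 6 stayed below it in both. The FPKM values of all 7 added up to 2.88 in DMSO and 1.86 in GW3965, and Slc47a1 alone made up 38.9% and 53.9% of these sums. Among genes above 0 in the DMSO library, whose median FPKM was 3.29, the carriers stood between percentile 11.9 (Slco1a4) and percentile 39.8 (Slc47a1).

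Because the values are low, the number of fragments behind them matters. Low FPKM values move in steps of single fragments, and these steps put the libraries at about 63200000 fragments for DMSO and 78500000 for GW3965. Fragments per carrier were estimated from these totals and the longest coding transcript in GENCODE, and 95% intervals (exact, from counting alone) were derived from them. Coding transcripts ran from 405 to 4381 bases for Slco2b1, 622 to 3823 for Slco1a4 and 512 to 1989 for Slc22a7. Fragments from a shorter transcript would be fewer at the same FPKM, and the interval wider. Which transcripts were expressed was not tested. The intervals leave out any difference between cultures or in library preparation. In RNA of a whole culture, fewer hepatocytes and less RNA per hepatocyte cannot be told apart.

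The sodium-dependent bile acid carrier Slc10a1 (ENSMUSG00000021135, chromosome 12, 82054172 to 82068971, mm9) stood at 0.522 FPKM in DMSO and at 0.233 in GW3965. These values correspond to about 53 and 29 fragments. The GW3965 level was thus 0.445 times the DMSO level (95% counting interval 0.270 to 0.705), a log2 ratio of -1.17. In the authors' deposited table Slc10a1 had p = 0.0177 and q = 0.961, without a call. Even in DMSO the level of Slc10a1 was below that of its ileal relative Slc10a2, the bile acid carrier of the intestine and bile ducts, which had 1.26 FPKM in DMSO and 1.00 in GW3965.

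Slco1b2, the mouse OATP1B carrier for bile acids, bilirubin conjugates and statins (ENSMUSG00000030236, chromosome 6, 141578039 to 141635167, mm9), had the lowest ratio of the 7. Its FPKM was 0.488 in DMSO and 0.121 in GW3965, or about 97 and 30 fragments. The GW3965 level was 0.248 times that in DMSO (counting interval 0.159 to 0.378), which is 4.03-fold lower. The authors' deposited table gave Slco1b2 p = 0.00882 and q = 0.712, so the gene was not called. In DMSO its level was next to that of Slc10a1 and in GW3965 next to that of Slc22a7.

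The other carriers of the chromosome 6 cluster were lower still in DMSO and did not share one direction. Slco1a4, a carrier for bile acids and cardiac glycosides that is a known target of the xenobiotic receptor PXR (ENSMUSG00000030237, 141753961 to 141804720), had 0.0432 FPKM in DMSO and 0.0111 in GW3965. That is about 10 and 3 fragments, so its ratio of 0.258 had an interval from 0.0427 to 0.938. Slco1a1, a carrier for steroid conjugates and bile acids (ENSMUSG00000041698, 141855803 to 141895483), was the only member with the higher value in GW3965. It had 0.120 FPKM in DMSO and 0.166 in GW3965, about 28 and 49 fragments. The ratio of Slco1a1 was 1.38, and its interval of 0.868 to 2.33 included 1. The intervals of Slco1b2 and Slco1a1 did not overlap, so these genes of one cluster differed in their ratio by more than counting error in this pair of libraries.

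The remaining genes of the cluster were near the limit of detection. Slco1a5 had 0.0208 FPKM in DMSO and 0.0461 in GW3965, Slco1a6 had 0.00597 and was listed at 0 in GW3965, and Slco1c1, known from the blood-brain barrier, had 0.00660 and 0.00531. The nearest genes at the minimum FPKM of 1 were Aebp2, 951 kb from Slco1b2 on the lower side, and Recql, 399 kb from Slco1a1 on the higher side. Aebp2 had 46.8 FPKM in DMSO against 52.2 in GW3965, and Recql had 5.75 and 5.06. Shared sequence among the Slco1a paralogs was small. Of the 25-base words in the transcripts of Slco1a4, 4.64% also occurred in those of Slco1a5, and of Slco1a1 3.51% did.

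Slco2b1, a broadly expressed OATP for steroid sulfates (ENSMUSG00000030737, chromosome 7, 106806314 to 106859850, mm9), was lower in GW3965 as well. It had 0.437 FPKM in DMSO and 0.208 in GW3965, about 117 and 69 fragments. The ratio was 0.477 (counting interval 0.347 to 0.644), and the authors' deposited table gave p = 0.116 and q = 1.00 for Slco2b1. Its exons share 471 bases with the antisense gene Gm15635 on the other strand, whose FPKM was 0.266 in DMSO and 0.256 in GW3965. The sources used here do not say how strand was handled, so reads of Slco2b1 and Gm15635 may not be told apart where the genes overlap.

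For Slc22a7 and Slc47a1 the counting interval of the ratio included 1. Slc22a7 (ENSMUSG00000067144, chromosome 17, 46569134 to 46575426, mm9) had 0.148 FPKM in DMSO and 0.119 in GW3965, about 17 fragments in each library. With so few fragments its ratio of 0.806 had an interval from 0.386 to 1.68, so that a 2-fold lower level lies within the counting error at this depth. Slc47a1 (ENSMUSG00000010122, chromosome 11, 61156902 to 61191847, mm9) had 1.12 FPKM in DMSO and 1.01 in GW3965, about 176 and 196 fragments. Its ratio was 0.897 (0.727 to 1.10). The neighbour Slc47a2, another cation exchanger, had 0.0214 FPKM in DMSO and 0.0344 in GW3965.

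**Figure D1:**
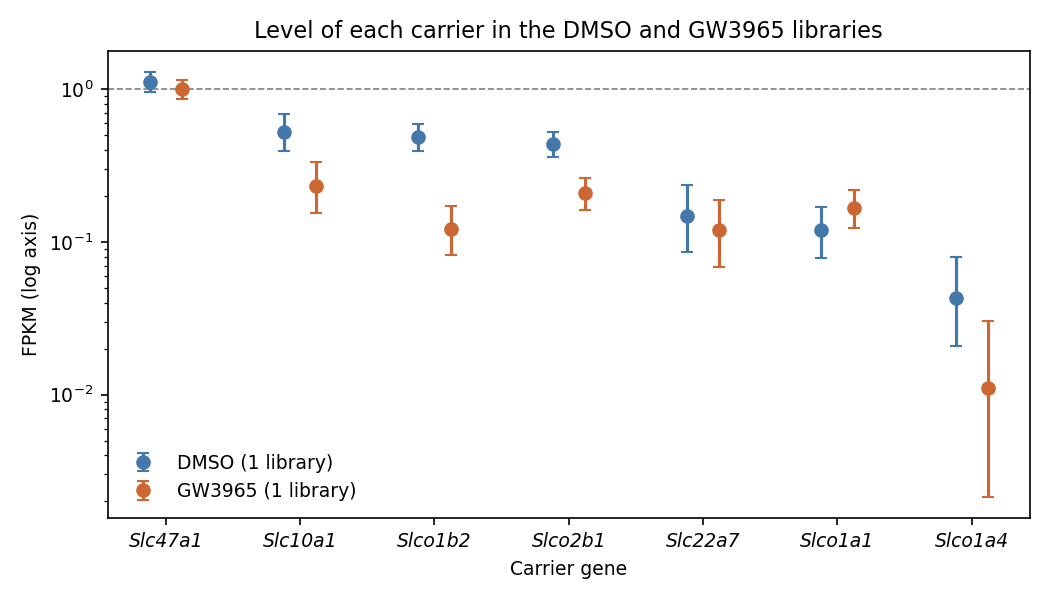
FPKM (log axis) of the 7 carriers in the DMSO and the GW3965 library, 1 library each, with bars for the 95% counting interval and a dashed line at an FPKM of 1. Slc47a1 lies at the line in both libraries, and the bars of Slc10a1, Slco1b2 and Slco2b1 do not overlap between the libraries.

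The order of the carriers differed between the libraries most in the places of Slco1b2 and Slco1a1. In DMSO, Slc47a1 stood above the rest, and Slc10a1, Slco1b2 and Slco2b1 followed with overlapping counting intervals. Slc22a7 and Slco1a1 came next, with intervals below that of Slco2b1, and Slco1a4 was last, with an interval that just overlapped that of Slco1a1. In GW3965, Slc47a1 was again first, and Slc10a1, Slco2b1, Slco1a1, Slco1b2 and Slc22a7 formed a row in which each interval overlapped the next. The interval of Slco1a4 in GW3965, up to 0.0305 FPKM, lay below that of Slc22a7, which began at 0.0688.

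Over all 7, 6 had a lower FPKM in GW3965 and 4 of these were at least 2-fold lower, namely Slco1b2, Slco1a4, Slc10a1 and Slco2b1. Of 15011 protein-coding genes above 0 in both libraries, 3.5% were at least 2-fold lower, and 7.35% at least 1.5-fold lower, a size that the same 4 carriers passed. Low genes scatter more, so the band of 0.1 to 1 FPKM (mean of both libraries) is the closer background. It held 2290 protein-coding genes, of which 7.03% were at least 2-fold lower and 3.97% at least 2-fold higher. Of the 5 carriers in that band, 3 were at least 2-fold lower. The median log2 ratio without a pseudocount was -1.07 for the 7 carriers, against -0.10 for the band and 0.01 for all these coding genes. Counting intervals lay below 1 for 4 carriers, above 1 for 0 and included 1 for 3, and with 0.5 times the estimated fragments that of Slco1a4 (0.0307 to 1.97) included 1 as well. In the band, 3 of the 5 carriers had an interval below 1, beside 19.1% of 2287 coding genes with an interval below 1 and 9.88% with one above it, so such intervals are common among low genes of these libraries.

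**Figure D2:**
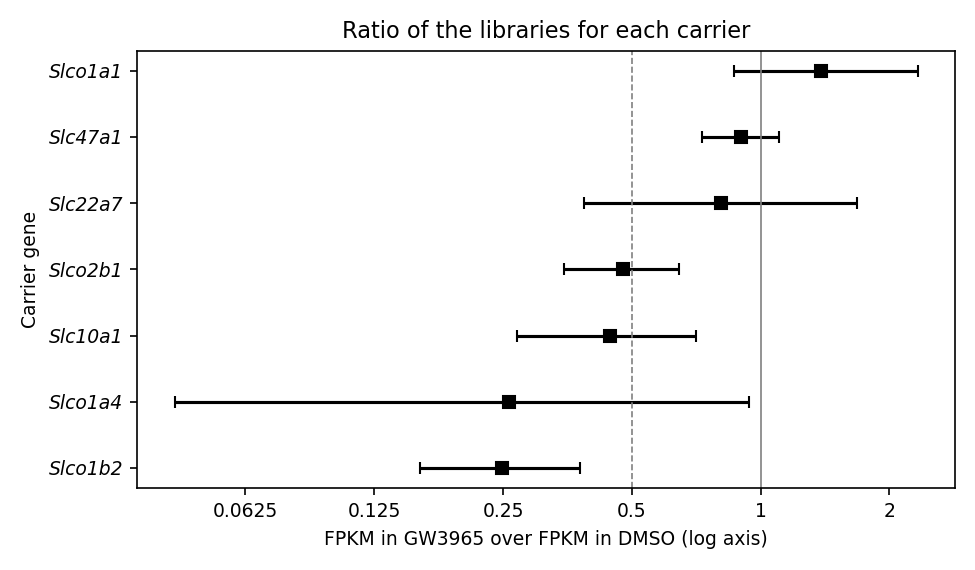
FPKM in GW3965 over FPKM in DMSO (log axis) for each of the 7 carriers, with the 95% counting interval, a solid line at equality and a dashed line at 0.5. The intervals of Slco1b2, Slco1a4, Slc10a1 and Slco2b1 lie below 1, and those of Slc22a7, Slc47a1 and Slco1a1 include it.

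The 1.5-fold size rule used for the whole table, log2 of (FPKM + 1) for GW3965 over (FPKM + 1) for DMSO, counts genes at a minimum FPKM of 1. Of the carriers only Slc47a1 entered it, at -0.08, and 0 of that 1 carrier passed, beside 2.35% of the 11796 genes that reached the minimum (1.02% higher and 1.33% lower), whose median was 0.01. Reaching the minimum means 1 FPKM or more in at least 1 library. On the same scale the 6 carriers below that minimum ran from -0.41 for Slco1b2 to 0.06 for Slco1a1, because adding 1 to values below 1 shrinks every ratio. The authors' deposited table tested 6 of the carriers, all but Slco1a4, and called 0 of them, beside 0.285% of the 15090 genes it tested. At an unadjusted p under 0.05 that table lists 2 of the 6, Slc10a1 and Slco1b2, both lower in GW3965, beside 3.34% of tested genes in either direction and 1.86% lower. That test compares 2 libraries and not the conditions. Standard errors of the log2 ratio derived from the authors' deposited table were 0.49 for Slc10a1, 0.77 for Slco1b2 and 0.68 for Slco2b1, wider than counting error.

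Some relatives of these carriers that serve other substrates were much higher and nearly equal in both libraries. Most of the relatives, however, were below an FPKM of 1 in both. The median FPKM in DMSO was 0.00660 for the other Slco genes and 0.0338 for the other Slc22 genes, against 0.437 for the 7 carriers. Of 11 other Slco genes, 2 reached an FPKM of 1. Slco2a1, the prostaglandin carrier, had 59.5 FPKM in DMSO against 65.3 in GW3965, and Slco3a1 had 7.41 and 6.42. Slco2a1 is also known from endothelium, and 9 of 10 endothelial markers were at the minimum in these cultures, with a summed FPKM of 222 in DMSO and 250 in GW3965. The part of those cells in the Slco2a1 signal was not tested. Among 24 other Slc22 genes, 8 reached the minimum, with a median log2 ratio of -0.03 and 0 past 1.5-fold. Slc22a5, which takes up carnitine, had 4.52 FPKM in DMSO against 4.43 in GW3965. Slc22a15 (-0.24), Slc22a4 (0.19) and Slc22a26, listed as BC014805 (0.15), had the largest ratios in size among the 8 at the minimum, and Slc22a17, below it, stood at -0.19. Of 7 other Slc10 and Slc47 genes 3 reached the minimum, with a median of -0.17 and 0 past 1.5-fold, and Slc10a3 stood at -0.24, Slc10a2 at -0.17 and Slc10a7 at 0.14.

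Genes listed as exporters of bile acids and organic ions were mostly well measured. The list and its sum also hold the phospholipid transporters Abcb4 (25.6 FPKM in DMSO) and Atp8b1 (2.80). Of 12 listed, 10 reached an FPKM of 1, and their summed FPKM was 304 in DMSO and 348 in GW3965, against 2.88 and 1.86 for the 7 carriers. Their median log2 ratio was 0.07, with 1 past 1.5-fold higher and 0 lower. Abcc2 (MRP2), which exports conjugated organic anions into bile, had 52.7 FPKM in DMSO and 76.1 in GW3965 (0.52). Abcc3 and Abcc4, exporters of the basolateral membrane, had 95.8 and 43.1 in DMSO and 92.5 and 52.6 in GW3965. The bile salt export pump Abcb11 had 1.26 and 1.56. Abcb1a, a drug efflux pump, had 13.8 and 28.7 (1.00), but its standard error derived from the authors' deposited table was 1.56, and its near copy Abcb1b had 26.1 and 32.0 (0.29), so the value of Abcb1a is uncertain. Osta (Slc51a), a subunit of the basolateral bile acid exporter, was listed at 0 in both libraries, and its partner Ostb (Slc51b) had 0.191 and 0.115. The derived standard error of Ostb was 3.05, so its ratio is uncertain too. By distance in log2(FPKM + 1) over the 2 libraries, the listed genes nearest to Slc47a1 were Abcc6 (1.22 and 0.932 FPKM) and Slc10a2.

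**Figure D3:**
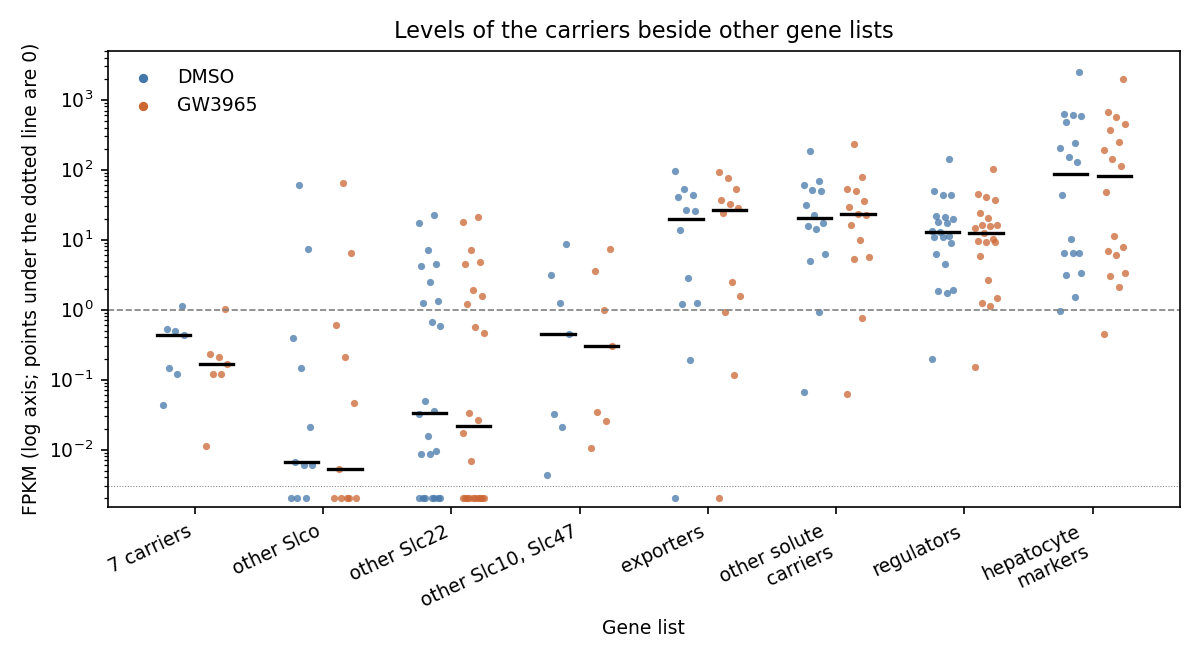
FPKM (log axis) of single genes in DMSO and GW3965 for the 7 carriers and 7 other gene lists, with black bars at each median, a dashed line at an FPKM of 1 and zeros drawn under the dotted line. The carriers have a median of 0.437 FPKM in DMSO, whereas the exporters have 19.7 and the hepatocyte markers 86.1.

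Nuclear receptors and liver factors reported to control these carriers were present. Of 21 listed, 20 reached an FPKM of 1, and 15 of these had a ratio below 0 and 5 above, with a median of -0.17 and 0 past 1.5-fold. The median over all genes at the minimum was 0.01. Nr1h4, the bile acid receptor FXR, had 4.47 FPKM in DMSO and 2.65 in GW3965 (-0.58), just short of that threshold. Nr0b2, which encodes the FXR-induced repressor SHP, had 1.88 and 1.12 (-0.44), and the antioxidant factor Nfe2l2 had 144 and 102 (-0.50). Hnf4a, which maintains hepatocyte genes, had 49.4 FPKM in DMSO against 37.4 in GW3965 (-0.39). Nr1i2, which encodes PXR, had 1.72 and 1.23 (-0.29). Among the 5 above 0, Ahr (0.21), Foxa2 (0.14) and Rxra (0.10) had the largest ratios. Nr1i3 (CAR), a xenobiotic receptor, was below the minimum at 0.197 and 0.152, with a standard error of 2.97 derived in the same way as for Abcb1a. Of 6 scaffold genes 5 reached it, with a median of -0.01 and 0 past 1.5-fold. Pdzk1, the scaffold that holds Slco1a1 at the membrane, had 0.341 and 0.172 FPKM, a log2 ratio of -0.19. Without a pseudocount, the standard error derived from the authors' deposited table was 5.04 for Pdzk1, so its ratio is uncertain. Among the 5 at the minimum, Msn (0.27), Slc9a3r2 (-0.19) and Rdx (0.03) had the largest ratios in size.

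Other solute carriers of the hepatocyte surface were mostly measured at higher levels. Of 14 listed, 12 reached an FPKM of 1, with a median log2 ratio of 0.01, 0 higher and 1 lower by 1.5-fold. Slc27a2, a fatty acid carrier and acyl-CoA synthetase, was that gene, at 15.7 FPKM in DMSO and 9.90 in GW3965 (-0.62). Slc38a3, a glutamine carrier, had 51.0 and 35.8 (-0.50), and Slc7a2, a carrier of cationic amino acids, had 17.5 and 23.4 (0.40). The glucose carrier Slc2a2 was below the minimum, at 0.916 and 0.751.

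**Figure D4:**
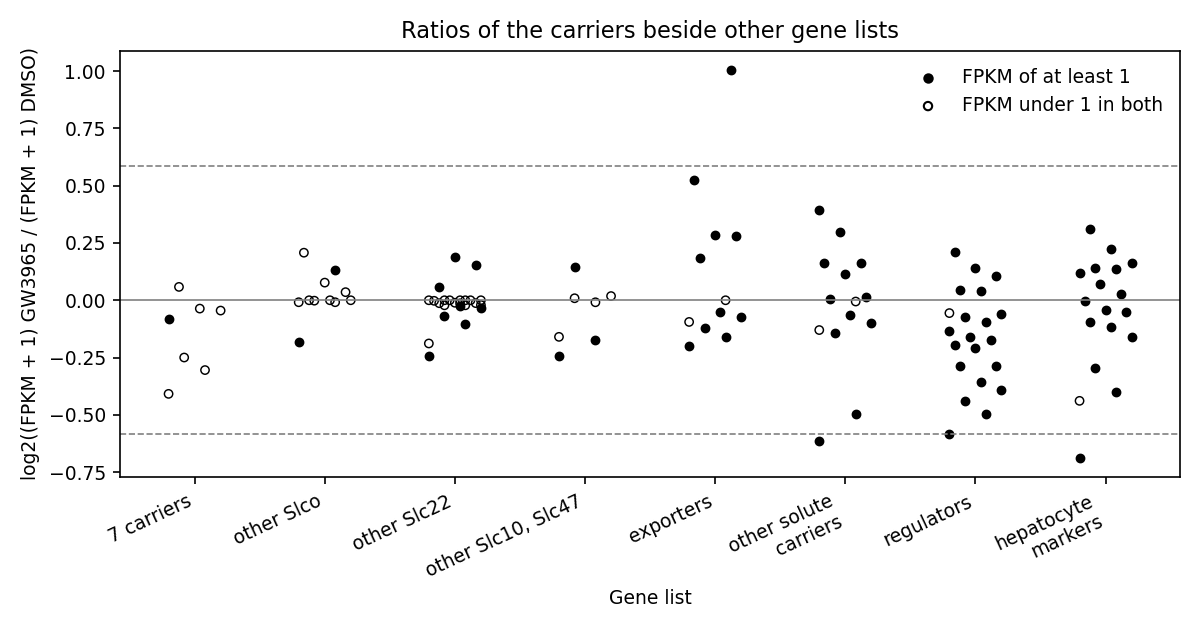
Log2 of (FPKM + 1) for GW3965 over (FPKM + 1) for DMSO of single genes, filled where 1 FPKM was reached and open where it was below 1 in both, with dashed lines at 1.5-fold. The carriers are open symbols except Slc47a1 at -0.08, and Abcb1a at 1.00 is the point above the upper line.

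The libraries were checked against their labels. All 6 listed LXR targets were at least 1.5-fold higher in GW3965, with log2 ratios of 2.40 for Abca1, 2.25 for Scd1, 2.01 for Abcg1, 1.39 for Srebf1, 1.25 for Lpcat3 and 0.95 for Mylip. The authors' deposited table called 4 of these 6, but not Srebf1 (q = 0.709) or Lpcat3 (q = 0.161). Of 18 hepatocyte markers with an estimate, 17 reached an FPKM of 1, with a median of -0.0026 and Fga (-0.69), Serpina1c (-0.40) and Cps1 (0.31) farthest from 0 among these. The marker below the minimum was Tat, the tyrosine aminotransferase, the one listed hepatocyte marker within the DMSO range of the carriers (0.0432 to 1.12 FPKM). Its FPKM was 0.962 in the DMSO library and 0.447 in that of GW3965, which is -0.44 as a log2 ratio. The plain ratio of Tat was 0.465, while Slc47a1, the carrier nearest to it in DMSO level, stood at 0.897. Slc10a1 was at 0.445 and Slco2b1 at 0.477, and the 7 carriers ran from 0.248 (Slco1b2) to 1.38 (Slco1a1). Tat is 1 of 18 markers and was named after its value was seen, so it does not speak for the list. The summed FPKM of these 18 was 5567 in DMSO and 4817 in GW3965, while Alb and Trf have no estimate in GW3965. Markers of other cells and of culture were present in both libraries and none was at 0. Of 11 macrophage markers 8 reached the minimum (median -0.08, summed FPKM 213 and 218), of 11 stellate cell and fibroblast markers 9 (0.15, 94.4 and 99.9), of 10 endothelial markers 9 (0.11), and of 9 cholangiocyte and culture markers 6 (0.29, 7232 and 7334). Most of the last sum came from Spp1 (4131 FPKM in DMSO), Krt18 (1531) and Krt8 (1118). In the same list and library, Krt19 had 5.34 and Sox9 14.0, while Krt7 (0.0604), Epcam (0.210) and Cftr (0.00514) were below the minimum. Among the markers at the minimum the largest ratios in size in each list were those of Cd68 (0.32), Acta2 (0.37), Clec4g (-0.66) and Krt8 (0.41). Their part in the carriers' ratios was not tested.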

How the data were processed

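Total RNA of cultured hepatocytes gave 1 library for DMSO and 1 for GW3965. The authors worked with Cuffdiff, Cufflinks 2.0.2, TopHat2 2.0.6 and CASAVA and the builds NCBIM37 and mm9, per the submitters' processing notes. The sources used here do not give their settings, scaling or treatment of strand. The deposited values are FPKM, 1 column per library, and per the file headers the authors' table also gives a log2 fold, a p-value and q-value per gene and a test statistic, a score of the authors whose sign is opposite to the fold. The standard error of a log2 ratio was its size divided by that of the score.

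Ratios were log2 of (FPKM + 1) for GW3965 over (FPKM + 1) for DMSO, and counts used genes that reached 1 FPKM in at least 1 library, at a threshold of 1.5-fold. Plain FPKM ratios were given for the carriers. No SD or p-value was computed, since no group had replicates. The 7 genes marked as having too many fragments have no estimate and were left out. The members, lists and thresholds were chosen with earlier results of these data known, and the 2-fold background of low genes after seeing the values.

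The rule for named genes took all members, in every other list up to 3 genes at the minimum FPKM with the largest ratios in size, and genes nearest to a member in level or on its chromosome. The neighbours not described in the results (Srsf5, Smoc1, Arrb1, Neu3, Zfp318, Mrpl2, Aldh3a2 and Mapk7) were within 1.5-fold. Further list genes were named after their values were seen. Older symbols were matched by Ensembl identifier, and some listed genes are counted but not reported by name.

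Depth came from 203 genes with 1 annotated GENCODE M21 transcript whose FPKM ratio of DMSO to GW3965 was 1.24, which is the same number of fragments in both. Of these, 68 fitted 1 fragment each within 0.5% at a length offset of 155 bases. Fragment numbers are estimates, and intervals cover counting error only. Table positions are mm9; 1 was added to each start, because 58.5% of 19846 single-gene loci had their GENCODE length when starts were counted from 0, and 1.53% when counted from 1. Promoters came from the RefSeq table in GRCm38.p6. The scripts were tested on simulated data. The software was matplotlib 3.10.9, scipy 1.17.1, pandas 2.3.3, numpy 2.4.6 and Python 3.11.15.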

Additional observations from a re-analysis of the deposited data

How the results depend on the processing

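Each carrier kept the sign of its ratio under all alternatives run on it, namely pseudocounts of 0.1 and 5, no pseudocount, centring on the median and scaling to the same sum. Of 35 such values, 15 moved beyond the counting interval of the value with a pseudocount of 1, by construction, because the pseudocount acts on low genes. With no minimum the count of carriers past 1.5-fold lower was 0 of 7 with a pseudocount of 1 (0.443% of all genes), 3 with 0.1 (2.84%) and 4 with none (9.58% of 18161 genes above 0 in both libraries), and their median log2 ratio was -0.08, -0.37 and -1.07. The last 2 settings were chosen after seeing the data. The shares of 0.443% and 2.84% are over 36801 genes. These include genes at 0 in both libraries, which cannot pass, so both shares understate that among expressed genes. At a minimum FPKM of 5 no carrier was left, so no value was obtained. Over all genes, counts of higher and lower genes past 1.5-fold were 120 and 157, and 194 and 320 with a pseudocount of 0.1, 56 and 56 with 5, 39 and 55 at 2-fold, 753 and 1045 with no minimum and a pseudocount of 0.1, and 1438 and 1740 with neither, while the lower count was 82 at a minimum of 5. The last count could not rise, because a higher minimum keeps a part of the same genes with the same ratios. The authors' deposited table calls 43 genes and 58 at a q of at most 0.1, and 0 carriers in either case. With 0.5 times the estimated fragments, an alternative added after seeing the data, the intervals of Slc10a1 (0.209 to 0.861), Slco1b2 (0.131 to 0.457) and Slco2b1 (0.300 to 0.733) stayed below 1, and that of Slco1a4 (0.0307 to 1.97) did not. No paired analysis was possible because neither group has replicates. Depth limits Slco1a4 and Slc22a7 most.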
